A study of Homo sapiens with 18 samples.

Results

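The transcripts described here are those of 102 genes with numbered LINC symbols that were expressed in metastatic derivatives of a breast cancer cell line. The symbol stands for long intergenic noncoding RNA, and not all of the 102 are annotated as such. They were chosen from the 58815 genes of the count table by a LINC symbol with 5 digits and by at least 1000 raw counts summed over the 18 libraries. The table held 1938 such LINC genes, of which 582 had no count in any library and 1254 had fewer than 1000. The level summed over all libraries therefore chose the genes and is given as a description. Just inside the threshold were LINC00705 with 1011 counts and LINC00869 with 1017, and just outside were LINC00886 with 998 and LINC00910 with 984.

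LM2, BrM3 and BoM are sublines selected in mice for growth in lung, brain and bone from the human breast cancer cell line MDA-MB-231, which lacks hormone receptors. All cells carried a doxycycline (DOX)-inducible lentiviral hairpin, either the control shCtrl or shWDR5-1 against WDR5, and all received 1 µg/mL DOX for 3 days, the controls included. Each of the 6 groups had 3 replicates, collected at different passages. A single hairpin was used in the libraries analysed here, so its effect on WDR5 cannot be told apart from an effect on other transcripts. Each line stands for 1 derived population, and the cells were grown in culture.

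Long noncoding RNAs are transcribed, capped, and often spliced and polyadenylated like mRNAs, but most are not known to be translated. Some act where they are made, on the chromatin or transcription of a neighbouring gene, and others act elsewhere as scaffolds, decoys or binding partners of proteins and microRNAs. Their expression is typically low and varies more between cell types than that of mRNAs. WDR5 is a WD40-repeat protein that anchors KMT2 histone H3 lysine 4 methyltransferases and other complexes on chromatin, and some long noncoding RNAs are known to bind it. The comparison of shWDR5 with shCtrl asks which of these transcripts depend on WDR5, and the comparison of the shCtrl libraries asks how they differ between derivatives.

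Total counts per library ranged from 17485841 to 119667013, and the 102 genes held between 0.0548% and 0.0900% of them. WDR5 itself, the targeted gene, stood at 124 ± 10.9 CPM in LM2 shCtrl and 23.1 ± 2.24 in LM2 shWDR5 libraries (mean ± SD, n = 3). In BrM3 the means were 85.9 ± 6.86 and 21.9 ± 1.43 CPM, and in BoM 89.2 ± 1.64 and 19.1 ± 4.42 CPM. CPM are read counts scaled by the TMM-adjusted library size. Of the markers of MDA-MB-231, VIM lay between 1482 and 2235 CPM in all libraries, and ESR1, PGR and CDH1 reached at most 0.536, 0.714 and 0.599 CPM. SPARC was low in BoM alone among the lines, at 3.02 ± 2.03 CPM in its shCtrl libraries against 118 ± 4.47 in BrM3 and 370 ± 5.49 in LM2, and ERBB2 and KRT8, listed as low in this line, reached 82.9 and 446 CPM. PECAM1 reached 4.67 CPM, and the other markers of immune, endothelial and fibroblast cells at most 1.13 CPM.

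All 102 genes were found by their Ensembl ID in GENCODE v44 on GRCh38. There, 94 are annotated as lncRNA, 6 as transcribed unprocessed pseudogenes, LINC02210 as a transcribed unitary pseudogene, and LINC00843 as the protein-coding readthrough gene TIMM23B-AGAP6. Coding genes with a readthrough transcript were left out of the positions, exon overlaps and nearest coding genes given here. Against the other coding genes most lie apart: 81 were intergenic, 8 started within 1 kb of a coding gene on the opposite strand (divergent), 8 overlapped a coding gene on the opposite strand and 5 on the same strand. Exons of 14 overlapped a coding exon, 4 of them on the same strand and 10 on the opposite strand. The strand setting of the counts is not given in the sources used here, so the counts of these 14 may hold reads of the coding partner. LINC00472, the host gene of MIR30C2 and MIR30A, LINC00960, the host of MIR4273, and LINC01505, the host of MIR8081, held a microRNA gene on their own strand. The merged exons had a median length of 4767 bases, from 143 to 33198.

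The levels of the 102 genes, as mean CPM over all libraries, ran from 1.20 to 63.1 with a median of 3.16, against a median of 33.5 for the tested protein-coding genes. LINC02582, at 63.1 CPM, and LINC00472, at 59.8 CPM, had the most counts. Per kilobase of exon in the shCtrl libraries, LINC00888 stood first with 44.4 CPM per kb, followed by LINC00680 with 38.5, LINC02582 with 22.2, LINC00973 with 18.8, LINC00674 with 18.7, LINC01145 with 13.5, LINC01293 with 8.04 and LINC00857 with 7.63. LINC00888, LINC00680, LINC00674 and LINC01145 have pseudogene models of only 421, 181, 160 and 143 bases, so their place in this order rests on those lengths. At the other end stood LINC01505 with 0.0891 CPM per kb, LINC02609 with 0.120 and LINC01322 with 0.135. In LINC00680, LINC01145 and LINC00869, 100% of the 50-base stretches of the transcript also occurred in transcripts of other genes, and the share was 91.2% in LINC01881, 89.3% in LINC00843 and 88.8% in LINC01106. The counts of these 6 genes cannot be assigned to them with certainty. Lengths and shared stretches are those of GENCODE v44, and the reads were counted against another annotation, so the counted models may differ.

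After WDR5 knockdown more of these genes were called as falling than as rising in BrM3 and BoM, and in BoM the shares were near those of all genes. Genes were called at an adjusted p under 0.05 in edgeR's quasi-likelihood test, with Benjamini-Hochberg adjustment over all 12760 genes that passed the same count threshold. In LM2, 10 LINC genes were called (9.8%, against 6.36% of all tested genes). Of these 5 rose and 5 fell (4.9% each), where 1.51% of all tested genes rose and 4.84% fell. In BrM3, 17 were called (16.7%, against 11.3%), and 2 rose and 15 fell (1.96% and 14.7%), against 3.13% and 8.16% of all genes. In BoM, 16 were called (15.7%, against 16.1%), and 5 rose and 11 fell (4.9% and 10.8%), against 5.38% and 10.8%. The share that fell was thus at or near that of all genes in LM2 and BoM. The counts within a line moved with single libraries. Without LM2 shWDR5 replicate 1, 2 LINC genes rose and 0 fell in LM2, against 0.502% and 2.57% of all genes. Without BrM3 shWDR5 replicate 3, 4 fell in BrM3, against 4.9% of all genes. Without BoM shWDR5 replicate 1, 10 rose in BoM, against 6.33% of all genes. With DESeq2, 8 rose and 13 fell in BoM, against 9% and 11.3% of all genes. With each library's dependence on GC content removed, 11 rose and 14 fell there, against 16.4% and 12.7%. With that correction and a replicate block together, 19 rose and 17 fell in BoM, against 24.5% and 15.8% of all genes. In that last setting the balance turned for all genes as well as for the LINC genes. With the GC correction alone it turned for all genes only, and with DESeq2 for neither.

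In the average over the lines, which has the smaller standard error, 14 LINC genes rose and 31 fell, 13.7% and 30.4% of the 102. The 45 together were 44.1%, against 36.1% of all tested genes. Of all tested genes, 15.9% rose and 20.2% fell, and of the 605 other lncRNA genes tested 9.75% rose and 27.3% fell. The median log2 fold change of the LINC genes was -0.13, and that of all tested genes was 0.00. By line, the median was -0.14 in LM2 and -0.13 in BrM3, and in BoM it was 0.02, on the other side of 0 from the balance of calls. The fold change was below 0 in each line for 40 of the 102 genes and above 0 in each line for 22. No LINC gene was called in opposite directions in different lines, 26 were called in at least 1 line, and 23 of the other 76 were called in the average. For these counts and those of the sign in each line, the share over all genes was not computed, so they are a description. Over all genes, 56% of those called in the average fell, against 49.8% with DESeq2 and 38.8% with the GC correction. For the LINC genes the average gave 31 of 45 calls as falls, DESeq2 29 of 44 and the GC correction 33 of 49. The number of falls dropped to 20 of the 102 with no filter on counts and to 16 with all libraries thinned to the smallest. Of all genes tested in those settings, 8.22% and 17.8% fell. After thinning, the share of LINC genes that fell was thus no longer above that of all genes.

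**Figure D1:**
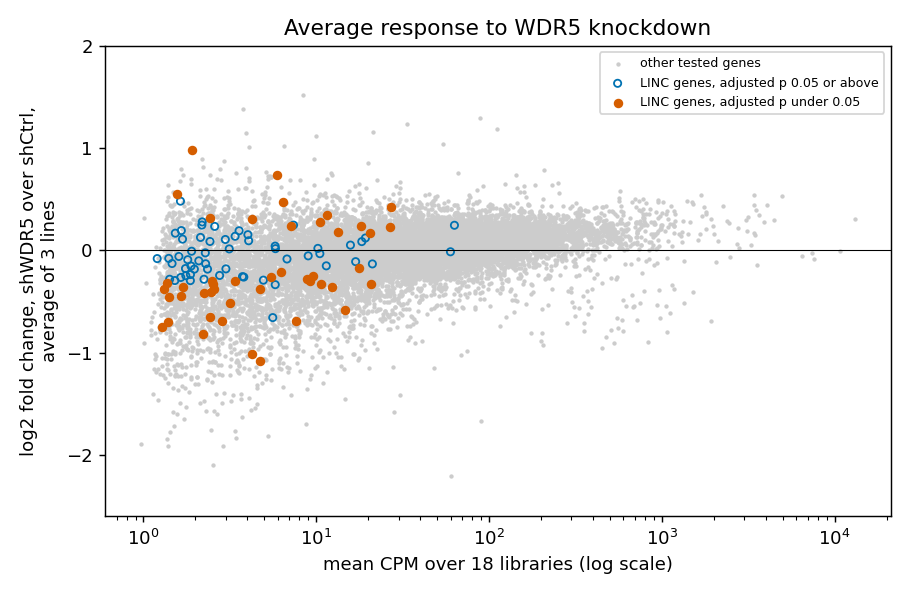
Each point is a tested gene, with its mean CPM over the 18 libraries on a log axis and its log2 fold change of shWDR5 over shCtrl averaged over the 3 lines. The LINC genes lie between 1.20 and 63.1 CPM at the low end of the tested genes, and the 45 that were called (filled orange) comprise 14 that rose and 31 that fell.

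In each line LINC01204 and LINC02535 were called as rising, and LINC02210, LINC01806 and LINC01278 as falling. The share of all genes called in every line was not computed. LINC01278 is on the list of LINC genes with reported roles in tumours given below, and the functions of the others are little known. For LINC02535, LINC02210, LINC01806 and LINC01278 the promoter from RefSeq on GRCh38.p14, from 250 bases before to 50 bases after the annotated start, is printed here because each of these genes was called in the same direction in all lines, LINC02535 upward and the others downward. The windows are chr6:85404753-85405052 on the minus strand for LINC02535, chr17:45620079-45620378 on the plus strand for LINC02210, chr2:161244489-161244788 on the plus strand for LINC01806 and chrX:63561046-63561345 on the minus strand for LINC01278. The window of LINC02535 lies outside the GENCODE v44 span of that gene, chr6:85387219-85390186. Capitals mark CACGTG, the E-box that MYC and related factors bind, GGGCGG on either strand, the GC box of SP1-like factors, and TATAAA on either strand, the TATA-like motif. Neighbouring matches of TATAAA on opposite strands can overlap.
LINC02535: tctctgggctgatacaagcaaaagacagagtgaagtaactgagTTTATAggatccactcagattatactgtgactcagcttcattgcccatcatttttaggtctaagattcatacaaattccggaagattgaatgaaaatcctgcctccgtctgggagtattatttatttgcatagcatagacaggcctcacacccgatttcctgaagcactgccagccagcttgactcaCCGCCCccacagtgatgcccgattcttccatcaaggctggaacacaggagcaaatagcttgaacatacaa
LINC02210: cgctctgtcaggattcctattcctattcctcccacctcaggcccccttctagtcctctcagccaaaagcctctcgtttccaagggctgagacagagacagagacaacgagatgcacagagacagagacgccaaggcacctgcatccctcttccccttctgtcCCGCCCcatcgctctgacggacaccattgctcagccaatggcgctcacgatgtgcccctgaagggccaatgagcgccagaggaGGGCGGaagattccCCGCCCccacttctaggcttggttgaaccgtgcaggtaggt
LINC01806: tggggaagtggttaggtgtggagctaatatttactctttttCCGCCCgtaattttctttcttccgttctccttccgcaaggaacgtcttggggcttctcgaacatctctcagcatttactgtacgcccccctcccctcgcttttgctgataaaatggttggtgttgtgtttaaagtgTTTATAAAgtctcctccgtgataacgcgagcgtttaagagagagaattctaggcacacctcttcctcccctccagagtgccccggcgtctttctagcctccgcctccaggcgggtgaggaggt
LINC01278: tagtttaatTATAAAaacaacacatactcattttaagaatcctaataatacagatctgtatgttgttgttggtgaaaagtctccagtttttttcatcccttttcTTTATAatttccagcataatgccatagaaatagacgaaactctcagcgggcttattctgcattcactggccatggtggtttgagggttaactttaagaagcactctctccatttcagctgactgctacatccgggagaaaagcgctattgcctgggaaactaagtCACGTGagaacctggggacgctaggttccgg

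CACGTG occurred once among these sequences, in LINC01278. GGGCGG occurred 3 times in LINC02210, once each in LINC02535 and LINC01806 and not in LINC01278, and TATAAA occurred in LINC02535, LINC01806 and LINC01278 but not in LINC02210. Of the 102 genes, 76 had a promoter in the RefSeq table of 35116. Of these 76, 4 held CACGTG, 32 held GGGCGG and 9 held TATAAA, where 7.3%, 45% and 11.5% of all promoters did. The 4 with CACGTG were 3 of the 26 that fell in the average and 1 of the 9 that rose. GGGCGG was in 15 of those 26, in 4 of those 9 and in 13 of the 41 that were not called.

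LINC01204, an intergenic gene at chrX:45505388-45632121 on the plus strand, rose the most. Its shCtrl libraries held 1.24, 0.925 and 1.07 CPM in LM2, 0.530, 0.538 and 0.542 for BrM3, and 2.20, 2.55 and 2.16 in BoM. With shWDR5 they held 2.14, 1.99 and 2.92 CPM in LM2, 1.03, 1.17 and 1.10 for BrM3, and 4.0, 3.69 and 4.36 in BoM. In each line the lowest shWDR5 library stood above the highest shCtrl library. The log2 fold change was 1.11 ± 0.16 (SE) in LM2, 1.04 ± 0.20 for BrM3 and 0.79 ± 0.16 in BoM, with an average of 0.98 ± 0.10 (adjusted p = 1.48e-06, edgeR quasi-likelihood test). The call held in each line with any 1 of the 18 libraries left out. The nearest coding gene, DIPK2B, lies 309608 bases away by annotated starts and had too few counts to be tested.

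LINC02535, on chromosome 6, rose in each line as well. It had 5.69, 3.77 and 4.30 CPM in the LM2 shCtrl libraries and 7.35, 6.81 and 6.07 with shWDR5. In BrM3 it went from 3.24, 3.54 and 4.0 to 5.45, 5.73 and 5.58 CPM, and in BoM from 5.54, 4.63 and 4.87 to 8.66, 10.8 and 10.7 CPM. The groups did not overlap in any line, and the change was largest in BoM. The log2 fold change was 0.58 ± 0.15 (SE) in LM2, 0.64 ± 0.16 for BrM3 and 1.00 ± 0.15 in BoM, with an average of 0.74 ± 0.09 (adjusted p = 6.86e-06, edgeR quasi-likelihood test). The LM2 call was lost without LM2 shCtrl replicate 2 (adjusted p = 0.151), shCtrl replicate 3 (0.116), shWDR5 replicate 1 (0.131) or shWDR5 replicate 2 (0.0921). It was also lost with no filter (adjusted p = 0.0539), with thinning (0.0783) and with LM2 fitted alone (0.113, all edgeR), and the BrM3 call without BrM3 shCtrl replicate 1 (0.067, edgeR). NT5E, which encodes the ecto-5'-nucleotidase CD73 and starts 59897 bases away, had a log2 fold change of 0.05 on average and was not called.

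LINC02210, the unitary pseudogene at chr17:45620328-45655156 on the plus strand, had the deepest fall of the genes called in each line. It had 7.23, 8.26 and 5.89 CPM in the LM2 shCtrl libraries, 4.51, 2.72 and 3.98 for BrM3, and 6.35, 6.04 and 5.88 in BoM. With shWDR5 it had 4.0, 4.02 and 3.60 CPM in LM2, 2.47, 1.5 and 1.41 for BrM3, and 3.54, 2.64 and 2.58 in BoM. No shWDR5 library reached the lowest shCtrl library of its line. The log2 fold change was -0.87 ± 0.20 (SE) in LM2, -1.12 ± 0.22 for BrM3 and -1.05 ± 0.21 in BoM, with an average of -1.01 ± 0.12 (adjusted p = 7.8e-06, edgeR quasi-likelihood test). The LM2 call was lost without LM2 shCtrl replicate 2 (adjusted p = 0.0834), shWDR5 replicate 1 (0.0557) or shWDR5 replicate 2 (0.0539), and with thinning (0.0521, all edgeR). A readthrough gene, LINC02210-CRHR1, shares its strand and part of its sequence, and 5.2% of the 50-base stretches of LINC02210 occurred in transcripts of other genes. PLEKHM1, the nearest coding gene by annotated start with readthrough genes left out, starts 142328 bases away and had a log2 fold change of 0.00.

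LINC01806, at chr2:161244720-161249095 on the plus strand, fell by a similar amount in each line. It had 9.71, 7.60 and 9.39 CPM in the LM2 shCtrl libraries, 11.1, 9.99 and 10.8 for BrM3, and 9.11, 8.18 and 8.94 in BoM. With shWDR5 it had 5.49, 5.61 and 6.58 CPM in LM2, 7.05, 5.36 and 6.14 for BrM3, and 4.69, 5.29 and 6.48 in BoM. Again the groups did not overlap in any line. The log2 fold change was -0.60 ± 0.14 (SE) in LM2, -0.79 ± 0.14 for BrM3 and -0.68 ± 0.14 in BoM, with an average of -0.69 ± 0.08 (adjusted p = 6.86e-06, edgeR quasi-likelihood test). Its LM2 call was lost without LM2 shCtrl replicate 3 (adjusted p = 0.0703), shWDR5 replicate 1 (0.084) or shWDR5 replicate 2 (0.0783), and with LM2 fitted alone (0.0716, all edgeR). PSMD14, which encodes a deubiquitinase of the proteasome and starts 63705 bases away, had a log2 fold change of 0.07 and was not called. Other genes' transcripts held 18% of the 50-base stretches of LINC01806.

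LINC01278, at chrX:63222993-63561095 on the minus strand, was the most abundant of the genes that fell in each line. Its shCtrl libraries held 15.3, 17.9 and 17.4 CPM in LM2, 21.1, 18.5 and 18.4 for BrM3, and 16.1, 16.4 and 16.9 in BoM. Its shWDR5 libraries held 10.7, 11.9 and 11.9 CPM in LM2, 10.6, 14.7 and 15.2 for BrM3, and 10.8, 10.1 and 9.67 in BoM. BrM3 had the widest spread among shWDR5 libraries, and the groups did not overlap in any line. The log2 fold change was -0.56 ± 0.12 (SE) in LM2, -0.51 ± 0.12 for BrM3 and -0.69 ± 0.12 in BoM, with an average of -0.59 ± 0.07 (adjusted p = 7.76e-06, edgeR quasi-likelihood test). The LM2 call was lost without LM2 shCtrl replicate 2 (adjusted p = 0.052) or shWDR5 replicate 1 (0.064), with thinning (0.121) or with LM2 fitted alone (0.0609, all edgeR). The BrM3 call was lost without BrM3 shCtrl replicate 1 (adjusted p = 0.0634), with no filter (0.0655), with thinning (0.0547) or with BrM3 fitted alone (0.0588, all edgeR). The gene shares its span with a coding gene on the same strand without exon overlap, and 0.1% of its 50-base stretches were shared with other genes.

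**Figure D2:**
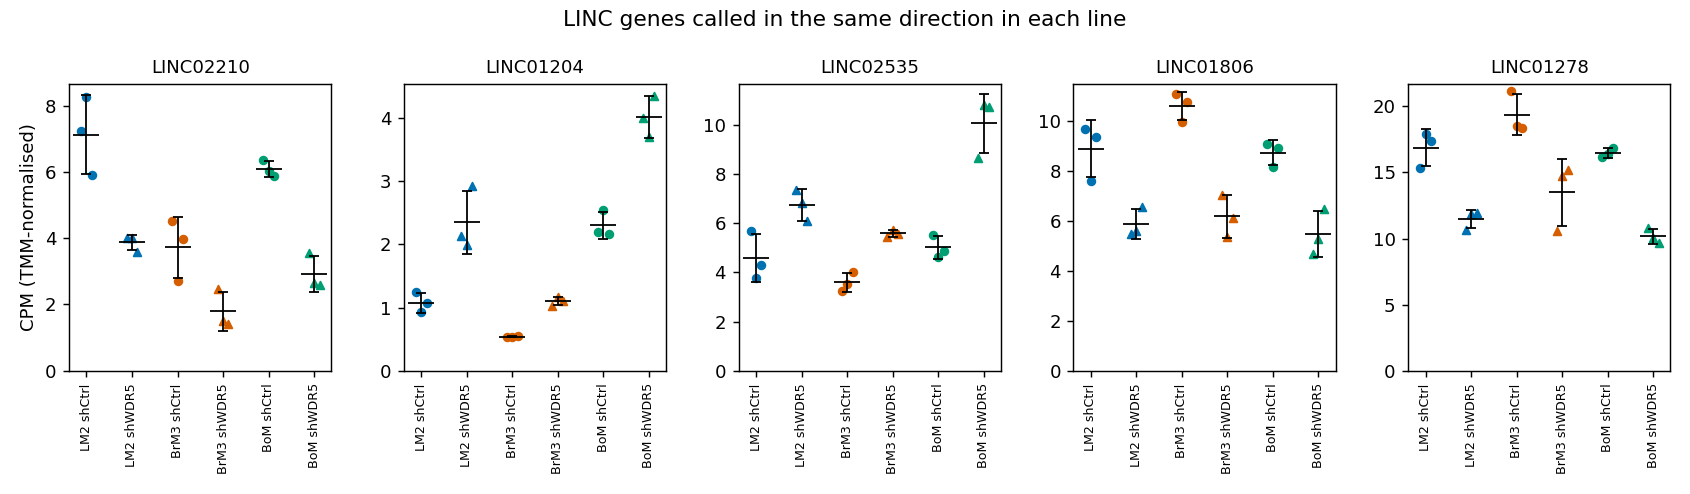
CPM of the LINC genes called in the same direction in each line, with shCtrl libraries as circles, shWDR5 libraries as triangles and the mean ± SD (n = 3) as bars. In each panel the shCtrl and shWDR5 libraries of a line do not overlap, with LINC02210 falling to between 1.41 and 4.02 CPM and LINC02535 rising to between 5.45 and 10.8 CPM. The genes were chosen by their calls in these libraries, so the separation is a description.

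The other genes with the largest rises in the average were LINC01356, LINC02009, LINC00707, LINC01293, LINC00460 and LINC02657, none of which was called for a different response between lines. LINC01356 rose by 0.55 ± 0.16 (log2, SE) on average and was called in LM2 alone, where it went from between 0.437 and 0.810 CPM to between 1.03 and 2.08. LINC02009, on chromosome 3 near CCRL2, rose by 0.47 ± 0.08 and was called in LM2 and BoM, with 8.25 to 10.8 CPM in the BoM shCtrl libraries and 13.7 to 15.6 with shWDR5. LINC00707, reported in several carcinomas as growth-promoting, rose by 0.42 ± 0.06 and was likewise called in LM2 and BoM, from 2.44 to 3.05 CPM in LM2 shCtrl to 3.60 to 4.65 with shWDR5. In BrM3, where LINC00707 was highest at 42.2 to 47.0 CPM, it reached 50.2 to 51.5 with shWDR5 and was not called (log2 fold change 0.18 ± 0.10). LINC01293 (0.34 ± 0.11), LINC00460 (0.32 ± 0.10) and LINC02657 (0.31 ± 0.09), which is also known as LASTR and supports splicing under stress in carcinoma cells, were called in the average but in no single line. The call of LINC01293 was lost without BoM shCtrl replicate 2, BrM3 shCtrl replicate 2, LM2 shCtrl replicate 2 or LM2 shCtrl replicate 3, with adjusted p between 0.0518 and 0.0531, and with thinning (0.0591, edgeR). That of LINC00460 was lost with no filter (adjusted p = 0.07) and with thinning (0.0887, edgeR).

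Among the other large falls, LINC00265 fell by 0.82 ± 0.13 (log2, SE) on average, and was called in BrM3 and BoM. It went from between 2.99 and 3.92 CPM in BoM shCtrl libraries to between 1.58 and 2.10 with shWDR5. LINC00346, also named PRECSIT and known as a p53-regulated transcript of squamous carcinoma, fell by 0.69 ± 0.10 and was called in the same lines, from between 2.06 and 3.04 CPM to between 1.34 and 1.36 in BoM. LINC02609 fell by 0.70 ± 0.13, also called in BrM3 and BoM, and LINC01410 by 0.65 ± 0.13 with no call in a single line. For LINC01410, 31% of the 50-base stretches were shared with other genes.

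LINC01929 and LINC01411 fell on average and were scarce in some lines. LINC01929 had the lowest average of all, -1.08 ± 0.25 (log2, SE), and was called in BrM3, where it went from 43, 23 and 30 counts to 7, 6 and 9. In LM2 it had 11, 14 and 10 counts in shCtrl and 4, 4 and 2 with shWDR5. In BoM, the line that expressed it, shCtrl libraries held 14.8, 16.1 and 14.6 CPM and shWDR5 libraries 10.1, 11.3 and 13.8 (log2 fold change -0.37 ± 0.23, adjusted p = 0.289, edgeR). LINC01411 averaged -0.75 ± 0.25 with no call in a single line. Its log2 fold change was -0.68 ± 0.25 in LM2 and -0.83 ± 0.28 in BrM3, the lines that expressed it, and -0.74 ± 0.66 in BoM. In BoM it had 11, 1 and 3 counts against 1, 5 and 2. Without BoM shCtrl replicate 1 its average was -0.37 (adjusted p = 0.363), without BoM shWDR5 replicate 1 it was -0.56 (0.0874) and without BoM shWDR5 replicate 3 it was -0.72 (0.0534, all edgeR). Thinned to the smallest library, neither LINC01929 nor LINC01411 was called (adjusted p = 0.141 and 0.258, edgeR).

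**Figure D3:**
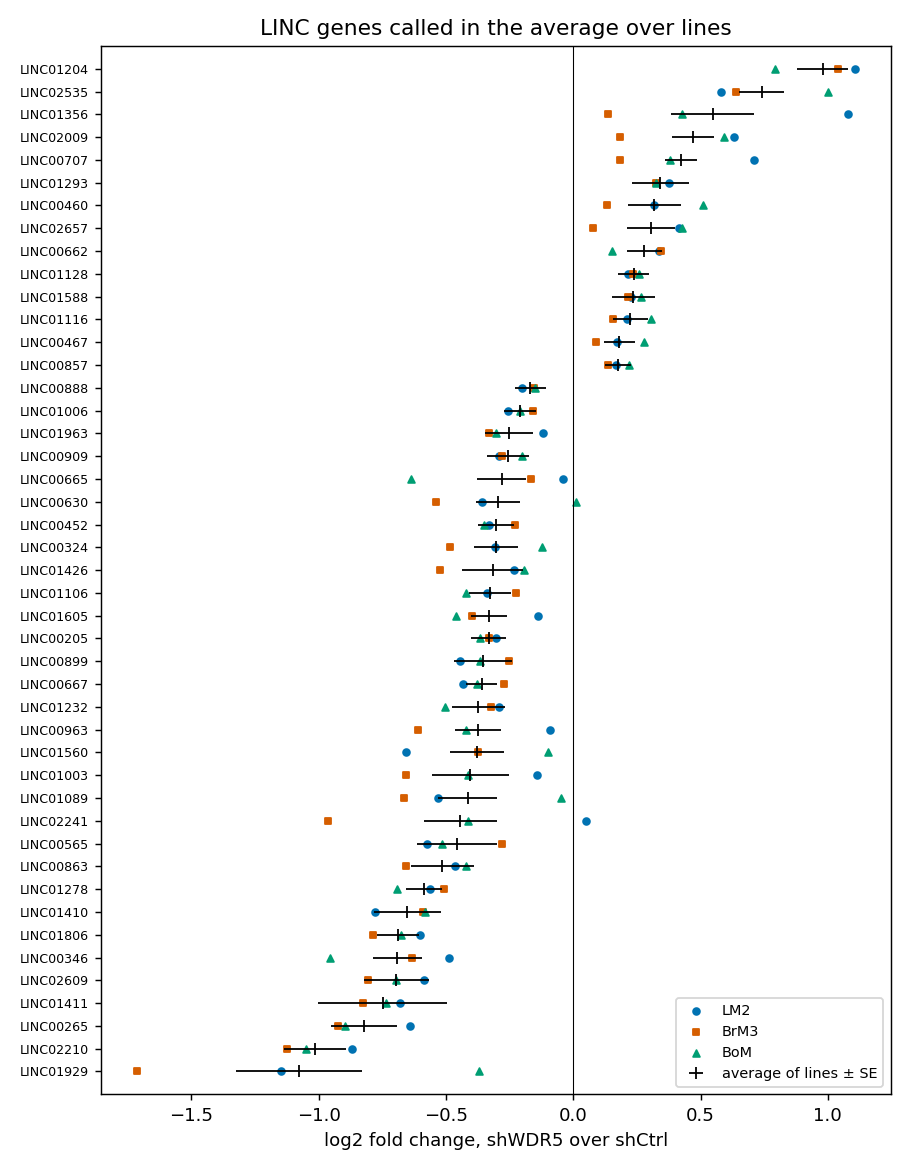
Log2 fold changes of shWDR5 over shCtrl for the 45 LINC genes called in the average over lines, with a coloured point for each line and a black bar for the average ± SE. Values run from -1.08 for LINC01929 to 0.98 for LINC01204 on average, and LINC01929 shows the widest separation of its lines.

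A list of 35 LINC genes with reported roles in tumours held 22 of the 102. Of these 22, 6 rose in the average, 10 fell and 6 were not called, with a median log2 fold change of -0.14. These are 6 and 10 of 22, where 15.9% of all tested genes rose and 20.2% fell. LINC00707, LINC00662, LINC00460, LINC01116, LINC00467 and LINC00857 rose, by 0.17 to 0.42. LINC01278, LINC00265, LINC00346, LINC00963, LINC00667, LINC00205, LINC00324, LINC00630, LINC00665 and LINC00888 fell, by 0.17 to 0.82. LINC00667, with 12.4 CPM, was called in LM2 (-0.43 ± 0.11) and BoM (-0.38 ± 0.11). LINC00472 and LINC00511 were not called in any line, with average log2 fold changes of -0.01 ± 0.09 and 0.05 ± 0.09. LINC00467 and LINC00665, the 2 of 8 listed genes known to encode microproteins that were expressed, moved apart: 0.18 ± 0.06 for LINC00467 and -0.28 ± 0.10 for LINC00665, which was called in BoM. Of 39 well-known long noncoding RNAs with other names, 26 were tested, and 3 rose and 3 fell in the average, against the same 15.9% and 20.2% of all tested genes. These lists were compiled with knowledge of published roles, and the counts carry no test of the lists.

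The divergent genes are transcribed away from a coding gene and may share its promoter. Of these 8, 5 fell in the average, 0 rose, and their median was -0.26, where 20.2% of all tested genes fell and 15.9% rose. The divergent partner did not move with all of them. LINC00205 fell by 0.33 ± 0.07 and POFUT2, which starts 142 bases away and encodes a protein O-fucosyltransferase, fell by 0.15. LINC01089, known in breast cells as a transcript lowered by EGF, fell by 0.41 ± 0.12, while SETD1B, a KMT2-family methyltransferase gene 525 bases away, rose by 0.38 on average (adjusted p = 0.00495, edgeR). For LINC01089, 54.1% of the 50-base stretches were shared with other genes and its exons overlap a coding exon on the same strand, so its counts are uncertain. LINC01560 fell by 0.38 ± 0.11 with ZNF41 at -0.03, and LINC00909 fell by 0.26 ± 0.08 with ZNF407 at 0.23 and not called. LINC01006 fell by 0.21 ± 0.06 with RNF32 at -0.24 and not called. LINC01184, which was not called (-0.13 ± 0.05, adjusted p = 0.0562, edgeR), lies beside SLC12A2, the gene of the NKCC1 ion cotransporter, which rose by 0.54. Among the intergenic genes 14 rose and 22 fell of 81, beside those same shares of all genes. LINC00460 rose together with EFNB2, an ephrin ligand gene 159089 bases away (0.32 against 0.50).

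No LINC gene was called for a different response between lines. For each pair of lines the difference of the log2 fold changes was tested in the same fit, and edgeR and DESeq2 gave 0 calls for BrM3 minus LM2, BoM minus LM2 and BoM minus BrM3 (0.00784%, 0% and 0.00784% of all genes with edgeR). At an unadjusted p under 0.05 there were 8, 9 and 5 of the 102 LINC genes. The share of all genes at that cut was not computed, so no excess is read from these counts. The smallest unadjusted p was that of LINC01234 between BoM and LM2 (edgeR adjusted p = 0.17). LINC01234 had 16, 16 and 16.8 CPM in LM2 shCtrl libraries and 15.8, 15.6 and 18.3 with shWDR5, while in BoM it went from 17, 24 and 9 counts to 5, 6 and 4 (log2 fold change -1.57 ± 0.34 in BoM). LINC01836 was next, with 1.92, 2.12 and 2.32 CPM in LM2 shCtrl and 1.69, 1.48 and 1.46 with shWDR5, and 2.00, 1.84 and 2.17 against 2.35, 2.60 and 2.33 in BrM3. Its responses differed by 0.74 ± 0.22 (log2, SE), with an adjusted p of 0.774 (edgeR). The median standard error of such a difference among the 102 genes was 0.26 to 0.27 on the log2 scale.

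The shCtrl libraries differed more widely than the hairpins did. Line and everything else that differs between the cultures cannot be told apart, and the pairs of lines share their control libraries. Between BrM3 and LM2, 64 LINC genes were called (62.7%, against 46.8% of all tested genes). Of these 37 were higher in BrM3 and 27 lower (36.3% and 26.5%), against 23.7% and 23%. Between BoM and LM2, 68 were called (66.7%, against 50.8%), 46 higher in BoM and 22 lower (45.1% and 21.6%), against 25.3% and 25.5%. Between BoM and BrM3, 52 were called (51%, against 36.6%), 31 higher in BoM and 21 lower (30.4% and 20.6%), against 17.2% and 19.3%. The level was highest in BoM for 44 of the 102 genes, in LM2 for 30 and in BrM3 for 28. A gene that passed the count threshold through 1 line had to differ between lines, and 36 of the 102 had under 333 counts in some line, so these shares are a description.

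LINC02582, on chromosome 18, was the gene with the highest level in 1 line. Its BoM shCtrl libraries held 151, 163 and 155 CPM, its BrM3 libraries 9.62, 9.15 and 8.94, and its LM2 libraries 1.47, 0.757 and 0.0729. The BoM level exceeded that of BrM3 by 16.9-fold (95% counting interval 15.9 to 17.9) and that of LM2 by 352-fold (287 to 436). These intervals are exact intervals of the ratio of pooled counts and cover counting error only. The fitted log2 difference between BoM and LM2, 8.16, became 8.89 without LM2 shCtrl replicate 1 and 7.25 without LM2 shCtrl replicate 3, so the fold against LM2 rests on these libraries. The 6 LM2 libraries of both hairpins ranged from 0 to 1.47 CPM. LINC02582 was not called for knockdown in any line. In BoM its shWDR5 libraries held 197 to 214 CPM, all above its shCtrl libraries (log2 fold change 0.38, adjusted p = 0.53, edgeR). The test estimates the spread of a gene over all 18 libraries, LM2 included, so the missing call does not show that BoM was unchanged. LINC01929, also on chromosome 18, shared the order, with 14.6 to 16.1 CPM in BoM, 0.589 to 0.877 in BrM3 and 0.0810 to 0.414 in LM2.

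LINC00648 and LINC02303, both on chromosome 14, were nearly absent from LM2. LINC00648 had 3, 1 and 2 counts in the LM2 shCtrl libraries, against 497, 385 and 424 for BrM3, and 251, 268 and 155 in BoM. The ratio to LM2 was 360 (95% counting interval 165 to 982) for BrM3 and 241 (110 to 658) for BoM. The fitted log2 difference for BrM3, 8.32, became 9.06 without LM2 shCtrl replicate 1 and 7.67 without LM2 shCtrl replicate 3, and that for BoM, 7.76, became 8.50 and 7.11. LINC02303 had 3, 2 and 8 counts in LM2, 273, 212 and 193 for BrM3, and 117, 122 and 62 in BoM, a ratio to LM2 of 86.2 (50.1 to 163) and 49.6 (28.6 to 94.2). LINC01320, on chromosome 2, also was low in LM2, at 0.113 to 0.151 CPM against 2.20 to 2.54 in BrM3. LINC01322 was a BrM3 transcript, with 367, 207 and 241 counts there, 4, 3 and 6 in LM2 and 8, 5 and 1 in BoM, and LINC01792 stood at 7.38 to 8.52 CPM in BrM3 and 0.402 to 0.599 in BoM.

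LINC01234, LINC01505, LINC01411, LINC00565 and LINC01711 were highest in LM2. LINC01234, described as growth-promoting in several carcinomas, had 424, 953 and 2080 counts in LM2 shCtrl libraries, 2, 2 and 3 for BrM3, and 17, 24 and 9 in BoM. LM2 exceeded BrM3 by a ratio of 299 (95% counting interval 145 to 744) and BoM by 32.3 (24.4 to 43.6), and BoM exceeded BrM3 by 9.26 (4.18 to 24.2). LINC01505 had 101, 200 and 422 counts in LM2, 12, 7 and 12 for BrM3, and 1, 2 and 1 in BoM, so that LM2 exceeded BoM by 84.4 (32.8 to 311). LINC01411 stood at 2.34 to 3.02 CPM in LM2, 1.79 to 2.00 in BrM3 and 0.0260 to 0.278 in BoM. LINC00565, also named SWINGN and known to bind SWI/SNF remodellers, stood at 3.47 to 4.27 CPM in LM2, 5.10 times its level in BrM3 (4.11 to 6.39). LINC01711 stood at 4.03 to 5.55 CPM in LM2 and 0.489 to 0.697 in BrM3. LINC01638 was low in BrM3, at 0.231 to 0.469 CPM, against 2.56 to 2.76 in BoM.

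**Figure D4:**
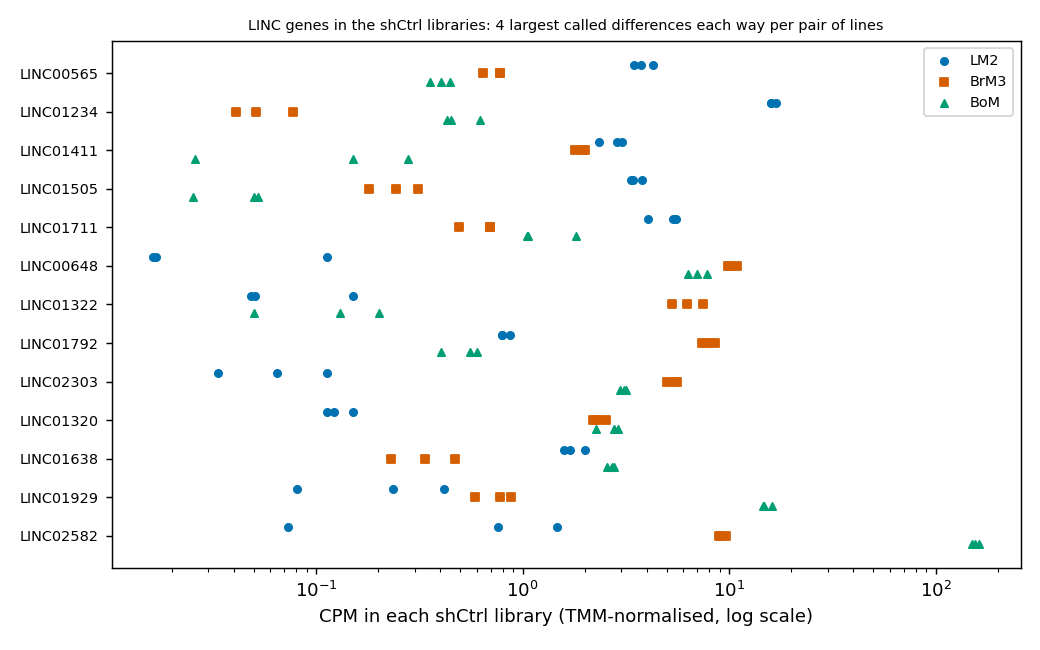
CPM on a log axis in each of the 9 shCtrl libraries for 13 LINC genes, those among the 4 largest called differences each way in any pair of lines, coloured by line. LINC02582 reaches 151 to 163 CPM in BoM, and LINC00648 lies at or below 0.113 CPM in LM2 and at 6.35 CPM or more in BrM3 and BoM.

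Some line differences ran along with those of the nearest coding gene and others did not. LINC00707 was 4.10 higher in BrM3 and 3.29 higher in BoM than in LM2 on the log2 scale, and PRKCQ, the gene of protein kinase C theta 199294 bases away, was 4.81 and 4.52 higher. LINC02009 and CCRL2, a chemokine receptor-like gene 16332 bases away, were 2.53 and 1.49 higher in BoM than in LM2. LINC00565 and C13orf46, 45085 bases away, differed by -2.38 and -2.23 between BrM3 and LM2. LINC01234 differed by -8.13 between BrM3 and LM2, while RBM19, 192639 bases away, differed by 0.55. After knockdown, LINC00707 rose by 0.42 in the average, and PRKCQ was at -0.46 (adjusted p = 0.00954, edgeR).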

How the data were processed

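The 18 libraries were mRNA from 3 derivatives, LM2, BrM3 and BoM, each with shCtrl or shWDR5-1 (6 groups of 3). Per the labels and the study's methods, the authors made stranded mRNA libraries, aligned reads to hg38 with STAR 2.7.0 after CASAVA 1.8.2, and deposited raw counts per gene, without normalization. A second deposited table of fold changes and adjusted p-values from DESeq2 was not used. Groups come from the sample titles, since the source labels contradict them for most libraries. BrM3 follows the study's text, where the cell line field has BrM2. In the count columns, ad was read as shCtrl by elimination. 0 per-sample columns were left unused, and 0 spike-in rows were present.

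The main test was the quasi-likelihood F test of edgeR 4.0.16 (R 4.3.3, TMM scaling, 1 fit of 6 groups, 12 residual degrees of freedom). All 12760 genes with at least 1000 summed counts were tested, so that every LINC gene was. P-values were adjusted by Benjamini-Hochberg and called under 0.05. CPM are TMM-scaled. Standard errors derive from the F statistic. Positions and lengths come from GENCODE v44, and shared sequence from 50-base stretches of its transcripts. The code was tested on simulated data. Depth was 17485841 to 119667013 counts per library, which limits low genes. Replicates of a group differed by more than sampling noise.

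The LINC genes, the gene lists and the tests were chosen with earlier results of these data known. Named genes are those called in each line, the 8 largest rises and falls in the average, the 2 smallest p for differences between lines, the 4 largest differences each way between shCtrl lines, the highest and lowest levels per length, genes beside the threshold, and list members. 1 further LINC gene is not reported here. Alternatives were RLE scaling, DESeq2 1.42.0, other filters, a replicate block, a GC correction, thinning, lines fitted alone and leaving out each library.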

Additional observations from a re-analysis of the deposited data

How the results depend on the processing

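The alternatives were run for WDR5, the counts of calls and the genes named for knockdown, response or line differences, not for genes named only from a list or for their level. The log2 fold changes of those genes kept their sign, apart from differences in response between lines of LINC01234 and LINC01836, none of them called. With thinning to the smallest library, 3 LINC genes rose and 1 fell in LM2, 6 fell in BrM3, 7 fell in BoM, 16 fell in the average, and 1 rose and 1 fell in all lines. With no filter, 3 rose in LM2, 4 fell in BrM3, 7 fell in BoM, 20 fell in the average and 1 rose in all lines. With thinning, 1.21% of all genes rose and 3% fell in LM2, and 5.81%, 8.71% and 17.8% fell in BrM3, BoM and the average. With no filter, 0.628% of all genes rose in LM2, and 2.68%, 3.88% and 8.22% fell in BrM3, BoM and the average. The share of all genes called in all lines was not computed in any setting. With filterByExpr 8 fell in BrM3, against 5.91% of all genes, and with DESeq2 8 rose in BoM, against 9%. Lines fitted alone gave 1 rise and 1 fall in LM2, against 0.533% and 1.79% of all genes, and 6 falls in BoM, against 6.01%. With the GC correction, 9 fell in LM2, 4 rose in BrM3, 11 rose in BoM and 5 fell in all lines. Of all genes, 8.23% fell in LM2, 15% rose in BrM3 and 16.4% rose in BoM in that setting. The split of all called genes moved from 76.2%, 72.2% and 66.7% falls in LM2, BrM3 and BoM to 46.2%, 41.7% and 43.5% with the GC correction, and to 63%, 63.4% and 55.7% with DESeq2. The cause was not tested.

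Same-numbered libraries correlated between -0.158 and 0.703 in their deviations, not above 0.1 in every pair, and not every library correlated best with its own number, so the numbers were not taken to pair them. With the replicate block, 8 fell in LM2, 4 rose in BrM3 and 9 rose in BoM, against 7.82%, 6.5% and 11.2% of all genes. With block and GC correction together, 11 rose and 16 fell in LM2, 9 rose in BrM3, 19 rose and 17 fell in BoM, and 5 rose and 8 fell in all lines. Of all genes, 17.1% rose and 12.1% fell in LM2, 23.9% rose in BrM3, and 24.5% rose and 15.8% fell in BoM in that setting.

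Leaving out 1 library at a time gave 2 to 5 rises and 0 to 7 falls in LM2, 1 to 3 and 4 to 17 in BrM3, 3 to 10 and 7 to 13 in BoM, 12 to 15 and 25 to 31 in the average, and 1 to 2 and 0 to 4 in all lines. LM2 counts moved without LM2 shCtrl replicate 2 (3 rose, 2 fell), shCtrl replicate 3 (3, 3), shWDR5 replicate 1 (2, 0), shWDR5 replicate 2 (3, 1) or shWDR5 replicate 3 (3 fell). Of all genes, 0.517%, 0.549%, 0.502% and 0.658% rose without shCtrl replicates 2 and 3 and shWDR5 replicates 1 and 2. In the same fits 2.88%, 2.8%, 2.57% and 2.55% of all genes fell, and 4.07% without shWDR5 replicate 3. BrM3 falls moved to 7, 8 and 5 without shCtrl replicates 1, 2 and 3, and to 5 and 4 without shWDR5 replicates 2 and 3, and 1 rose without shCtrl replicate 1. Of all genes, 5.24%, 5.3%, 5.11%, 4.98% and 4.9% fell in these fits, in the same order, and 1.29% rose without shCtrl replicate 1. In all lines, 1 gene rose without BrM3 shCtrl replicate 1, LM2 shCtrl replicates 2 or 3, or LM2 shWDR5 replicates 1 or 2, and 1, 0 and 1 fell without LM2 shCtrl replicate 2 and LM2 shWDR5 replicates 1 and 2. BoM counts moved without shCtrl replicate 2 (3 rose), shWDR5 replicate 1 (10 rose) or shWDR5 replicate 2 (7 fell). In these fits 1.96% and 6.33% of all genes rose and 8.14% fell, in the same order. Counts between shCtrl lines stayed within 1.5 times in all 18 fits. The smallest library had 17485841 counts, and at that depth a gene of 1 CPM has few counts, so small changes of low genes were not detectable.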
